A study of Mus musculus with 6 samples.

Results

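Alveolar type 1 (AT1) cells of whole mouse lungs were taken from the dissociated E18.5 lungs of this series. They were chosen by the deposited values of 8 genes after correction for free RNA with SoupX. A barcode had to have at least 700 genes and 0.5 to 10% mitochondrial unique molecular identifiers (UMIs, 1 per captured mRNA molecule). It also had to have at least 1 of Epcam, at least 2 of Ager and at least 2 of Hopx. It had to have 0 of Foxj1 and Ptprc, which mark ciliated and immune cells, and a summed 0 of Lamp3, Abca3 and Slc34a2, which mark alveolar type 2 (AT2) cells. This left 158 members of 18683 whole-lung barcodes, with 46 in the library labelled null and 112 in the library labelled control. The whole series held 63659 barcodes in 6 libraries, and the other 4 came from Cxcl12-DsRed+ cells that were sorted as negative for EpCAM and CD45 at 4 ages between E13.5 and P8.

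The series profiled lung endothelium over time with a reporter of the chemokine gene Cxcl12, and its whole-lung libraries set embryos without CXCL12 against heterozygous ones. The control label stands for Cxcl12DsRed/+ embryos and the null label for Cxcl12DsRed/DsRed embryos, both at E18.5. The DsRed reporter sits in exon 1 of Cxcl12 in every cell, so both groups carry at least 1 copy of the insertion and no group is wild type. The lungs of 2 embryos are named per genotype, the cells were not sorted, and each genotype has 1 library, so no p-value or SE can be given and all differences below compare 2 libraries.

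AT1 cells are the very thin, widely spread cells that cover most of the gas exchange surface of the alveolus. They share a basement membrane with the capillaries beneath, and late in gestation they form, with AT2 cells, from a common pool of distal epithelial progenitors. Ager, a receptor of the immunoglobulin family on the basolateral membrane, and Hopx, an atypical homeodomain protein, are their customary markers. AT1 cells are also known as a source of VEGFA for the alveolar capillaries.

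The windows below are the 250 bases before the RefSeq start of Ager and Hopx, which chose the members, and of Akap5 and Emp2, genes that the rule did not use and that stood high in the members. They are shown 5′ to 3′ on the strand of the gene, from GRCm38.p6, and capitals mark GC boxes (GGGCGG, or CCGCCC on the other strand). RefSeq gives 2 starts for Hopx, and the upstream one is shown, since the window of the other lies within annotated exons over its whole length.

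Ager, chr17:34597600-34597849, plus strand: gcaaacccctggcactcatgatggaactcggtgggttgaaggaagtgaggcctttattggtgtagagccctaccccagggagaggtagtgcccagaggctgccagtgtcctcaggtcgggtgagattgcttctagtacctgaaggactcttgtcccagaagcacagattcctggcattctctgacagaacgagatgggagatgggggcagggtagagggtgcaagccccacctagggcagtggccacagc
Hopx, chr5:77115124-77115373, minus strand: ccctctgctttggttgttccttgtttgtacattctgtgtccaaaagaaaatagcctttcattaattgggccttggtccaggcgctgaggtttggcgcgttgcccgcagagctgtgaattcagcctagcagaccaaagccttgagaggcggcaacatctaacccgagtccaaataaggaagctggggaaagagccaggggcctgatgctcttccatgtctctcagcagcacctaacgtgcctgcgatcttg
Akap5, chr12:76324641-76324890, plus strand: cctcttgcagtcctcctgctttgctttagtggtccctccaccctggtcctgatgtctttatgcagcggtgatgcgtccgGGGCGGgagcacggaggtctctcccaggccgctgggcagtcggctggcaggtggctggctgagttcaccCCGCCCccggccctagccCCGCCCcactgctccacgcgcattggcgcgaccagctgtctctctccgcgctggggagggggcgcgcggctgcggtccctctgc
Emp2, chr16:10313969-10314218, minus strand: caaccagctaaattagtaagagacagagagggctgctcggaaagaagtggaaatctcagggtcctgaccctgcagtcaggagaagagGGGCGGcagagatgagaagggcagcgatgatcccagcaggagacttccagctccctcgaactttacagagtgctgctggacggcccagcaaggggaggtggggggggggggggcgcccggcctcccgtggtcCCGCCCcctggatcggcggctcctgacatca

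None of these 4 windows overlaps an annotated exon. Akap5 held 3 GC boxes, which begin 84, 102 and 171 bases before the start, and Emp2 held 2, at 31 and 163 bases. The windows of Ager and Hopx held none. A GC box occurs in 32.7% of all 32851 RefSeq promoter windows of this length. The letters CATTCC (or GGAATG), the core that TEAD factors bind, occur in 12.6% of all windows, CACTTG (or CAAGTG), bound by NKX2-1, in 11.6%, and TATAAA (or TTTATA) in 12.4%. None of these 3 occurs in the windows printed.

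Of the whole libraries, the one labelled null held 103857395 UMIs in 9838 barcodes and the one labelled control 85648519 UMIs in 8845 barcodes. SoupX had removed 18.5% of the UMIs of the former and 40.0% of the latter. The limits on genes and mitochondrial UMIs kept 9067 and 7448 barcodes. The barcode sequences of 140 cells occurred in both libraries, and 1 of these was a member, although no member was a member in both. Cxcl12 itself went against the labels. In a set of endothelial cells (Pecam1 and Cdh5 positive) it stood at 497 UMIs per 1000000 UMIs of the set (CPM, exact 95% Poisson interval 488 to 505) in the library labelled null and at 4.31 CPM (3.31 to 5.51) in the library labelled control. The names of the deposited files also give the opposite genotype for both libraries. Over all kept barcodes Cxcl12 stood at 191 CPM in the library labelled null and 1.27 CPM in the library labelled control. By Cxcl12 and by the file names, the library labelled control would thus be the null. The labels alone do not tell which it is. The libraries are still called by their labels throughout, and every direction below follows the label. The libraries differed in sex as well. Of the members labelled null, 24 had Xist UMIs alone, 16 had Y-linked UMIs alone, 3 had both and 3 had neither, and of the members labelled control 96 had Y-linked UMIs alone and 16 had neither.

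Members made up 0.507% (exact 95% Clopper-Pearson interval 0.372 to 0.676) of kept barcodes in the library labelled null and 1.504% (1.24 to 1.81) in the library labelled control. Among Epcam-positive barcodes the shares were 9.33% (6.91 to 12.2) of 493 and 16.4% (13.7 to 19.3) of 685. All intervals given here cover counting error only. The shares of barcodes with Ager and Hopx were closer, since 220 (44.6% of Epcam-positive) and 285 (41.6%) barcodes met every condition but the last. Part of the gap among kept barcodes was present at the first step, since 5.44% (4.98 to 5.92) of kept barcodes were Epcam-positive in the library labelled null and 9.20% (8.55 to 9.88) in the library labelled control. Among Epcam-positive barcodes the gap appeared at the last condition, which asks for no AT2 marker. It kept 20.9% (15.7 to 26.9) of these barcodes in the library labelled null and 39.3% (33.6 to 45.2) in the library labelled control.

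That gap was smaller before the correction for free RNA. On raw counts the last condition kept 55 of 263 barcodes (20.9%, 16.2 to 26.3) and 112 of 422 (26.5%, 22.4 to 31.0). On SoupX-adjusted values, 220 and 285 barcodes met every condition but the last. They had a median of 18003.5 raw UMIs in the library labelled null and 12158 in the library labelled control. After each barcode was thinned to 5000 raw UMIs, which left out 744 and 951 shallower barcodes, the last condition kept 72 of 161 (44.7%, 36.9 to 52.7) and 139 of 290 (47.9%, 42.1 to 53.8). The intervals then overlapped from 42.1 to 52.7%. Thinning also changed which barcodes met the conditions before the last, so the part of depth in the last condition alone was not tested. Thinning was added after the data had been seen. The number of members is thus a count of barcodes in which 3 AT2 genes were not seen, and fewer AT1 cells and more barcodes with an AT2 transcript cannot be told apart in it.

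**Figure D1:**
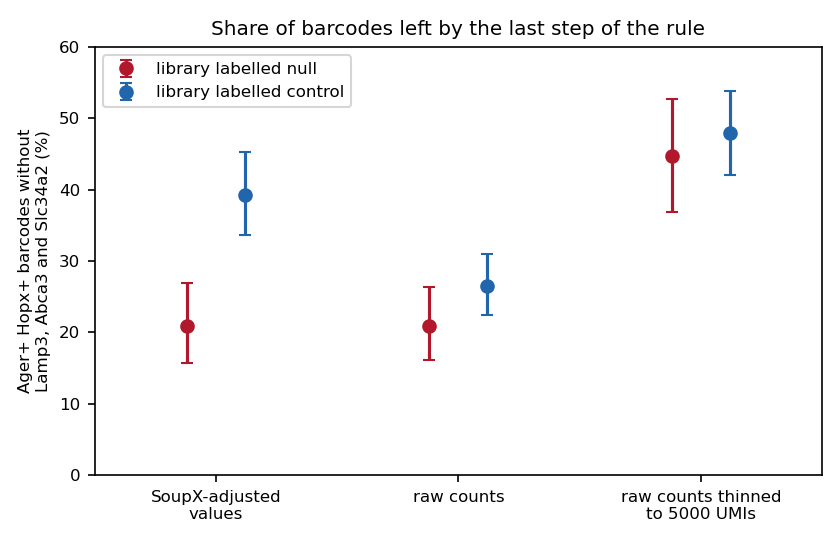
Percentage of Ager-positive and Hopx-positive barcodes without Foxj1 and Ptprc that also lacked Lamp3, Abca3 and Slc34a2, under 3 treatments of the counts. Points are the 2 libraries and bars are exact 95% Clopper-Pearson intervals; the libraries stand at 20.9% and 39.3% on SoupX-adjusted values and at 44.7% and 47.9% on raw counts thinned to 5000 UMIs.

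Near the thresholds, SoupX-adjusted Ager ran from 2.24 in the lowest member to a median of 81.0 in the library labelled null, and from 2.07 to a median of 48.8 in the library labelled control. Barcodes that failed on Ager alone numbered 10 and 18, and the highest had 1.18 and 1.99. Hopx reached down to 4.403 and 3.21, with 0 and 1 barcodes just outside. SoupX-adjusted Ager lay under 5 in 4 members labelled null and 1 labelled control, and Hopx in 1 and 2. The AT2 limit was different, since barcodes that failed on it alone numbered 174 and 173, more than the members, and in 62 of them in each library the 3 genes summed to less than 2. These barcodes are called the near-rule set below. Members had a median of 14748 UMIs (range 6838 to 27541) and 3283 genes in the library labelled null, and 11208.5 UMIs (1168 to 47367) and 2832.5 genes in the library labelled control.

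The levels below are summed raw UMIs of the members in CPM, from 702102 UMIs in the library labelled null and 1375607 in the library labelled control. The assay counts 3′ ends, so a level does not grow with transcript length. Of the genes of the rule, which are given as a description, Ager stood at 4974 CPM (4810 to 5141) in the members labelled null and 4362 CPM (4252 to 4474) in the members labelled control. Hopx stood at 5170 and 4791 CPM, and Epcam, a cell adhesion molecule of epithelia, at 463 and 464 CPM. Members labelled null differed widely among themselves in Ager, from 194 CPM in the lowest through a median of 5276 CPM to 13819 CPM in the highest. Members labelled control ran from 507 through 4350 to 19692 CPM. The ranges of both libraries overlapped from 507 to 13819 CPM. Thinned to 5000 UMIs, which left out 0 and 8 members, the median member held 25 and 22 UMIs of Ager and 27.5 and 23 of Hopx.

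The label was checked with a list of 24 further AT1 genes, and 21 of them reached 50 CPM in a library. Emp2, a tetraspan membrane protein, stood at 1938 CPM in the members labelled null and 1812 CPM in those labelled control. Cldn18, a claudin of alveolar tight junctions, stood at 1562 and 1685 CPM. Akap5, which anchors protein kinase A, stood at 805 and 825 CPM. The chloride intracellular channel genes Clic3 and Clic5 stood at 1080 and 1058 CPM and at 575 and 685 CPM. In the endothelial set of the same libraries Emp2 reached 62.5 and 76.8 CPM, Akap5 at most 3.21 CPM and Cldn18 at most 2.05 CPM. Clic5 was less particular, with a UMI in 82.6% and 90.4% of thinned members and in 50.2% and 57% of thinned endothelial cells. Pdpn, a mucin-like glycoprotein of the apical membrane, was lower at 125 and 96.7 CPM, and Rtkn2 at 52.7 and 55.2 CPM, and 0.729% of the windows at its 3′ end occur elsewhere, in Cnot6. Of the remainder, Scnn1g just missed 50 CPM, Igfbp2, a marker of mature AT1 cells, stood at 24.2 and 24.7 CPM, and Cyp2b10 was at 0 UMIs in both, which allows up to 4.27 and 2.18 CPM. Igfbp2 had a UMI in 6.52% and 9.62% of thinned members, and in 11.8% and 2.6% of thinned endothelial cells.

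**Figure D2:**
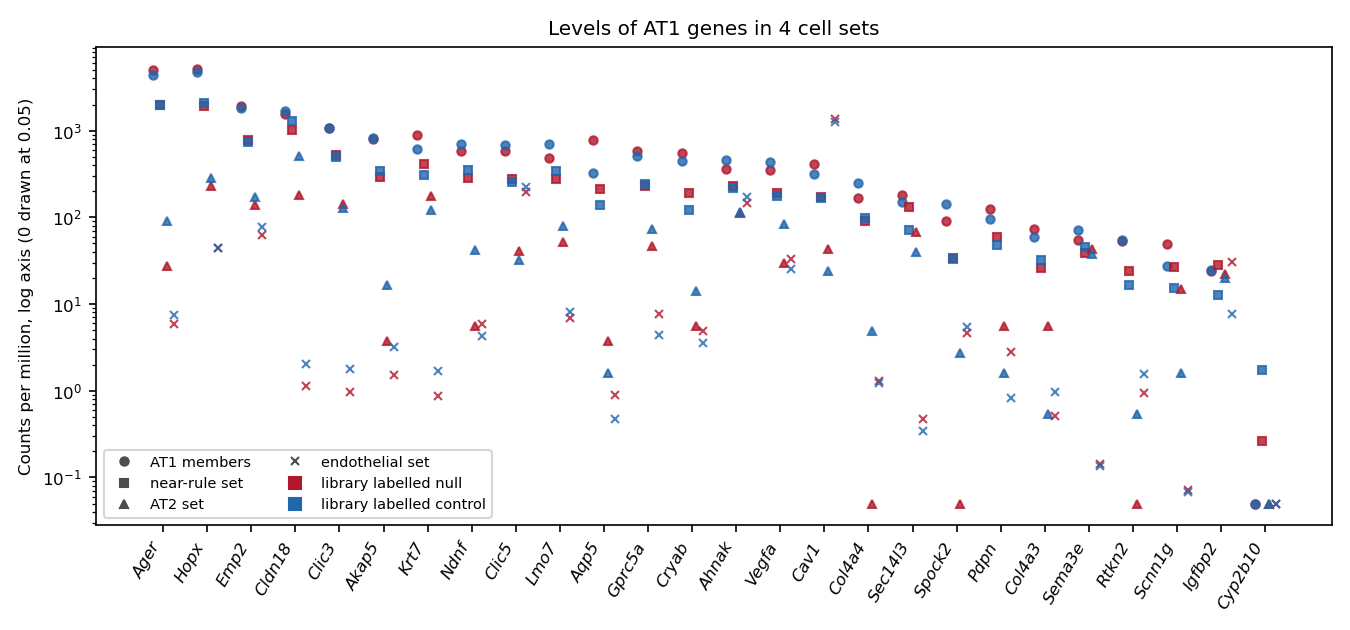
Levels of Ager, Hopx and 24 AT1 genes in CPM on a log axis in the AT1 members, the near-rule set, the AT2 set and the endothelial set of both libraries, from summed raw counts. Ager and Hopx lie near 5000 CPM in the members of both libraries, and the near-rule set lies below the members for 22 and 23 of the 24 genes. The endothelial set lies above the members for 2 genes in the library labelled null and 1 in the library labelled control, with Cav1 among them.

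Other cell types were looked for with marker lists. Pan-epithelial genes summed to 5344 and 4773 CPM in the members, against 133 and 134 CPM in the endothelial set, and Nkx2-1, the transcription factor that specifies lung epithelium, had a UMI in 46 of 46 and 112 of 112 members. Immune markers summed to 44.2 and 45.8 CPM, with 7857 and 8397 CPM in the immune set. The 7 basal and neuroendocrine markers were at 0 in both libraries. Ciliated markers summed to 208 and 184 CPM, of which 179 and 151 CPM came from Sec14l3, which is also on the AT1 list. Msln, customarily a gene of mesothelium, stood at 946 and 874 CPM, while 3 of the other 4 mesothelial markers were at 0 in both libraries and Upk3b at 0 and 0.727 CPM.

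Mesenchymal markers summed to 1263 and 1450 CPM over the members in raw counts, but to 26.6 and 0 CPM in SoupX-adjusted values. The median member had 94.0 and 114 CPM in raw counts and the highest 9284 and 11296 CPM. The raw sum of this list reached the fifth percentile of the mesenchymal set in 3 and 8 members. Scrublet called 3 and 7 of these doublets, and it called 6 members (13.04%) and 21 members (18.75%) doublets in all, against 5.54% and 5.52% of kept barcodes. One member in the library labelled control reached the same limit for endothelial markers, and no member did for immune markers. The summed endothelial markers were 420 and 190 CPM in raw counts and 57.7 and 2.04 CPM in SoupX-adjusted values. In raw counts 0 of these 12 markers was at 0 in both libraries. The part of doublets in the results below was not tested beyond removing the called ones, which is given with the limits.

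Genes of airway secretory cells set a few members apart. The 6 secretory genes (Scgb1a1, Scgb3a2, Scgb3a1, Cyp2f2, Bpifa1, Muc5b) took 3.23 to 11.002% of the UMIs of 4 members labelled null, while the next member had 0.451%. In the library labelled control they took 3.67 to 6.66% of 3 members, with 0.173% in the next. The median member had 0 in both libraries. The 4 and 3 members gave 97.8% and 91.1% of all secretory UMIs of the members, and Scrublet called none of them a doublet. Ager stood at 555 CPM in the 4 members labelled null, against 5423 CPM in the other 42. Single values in the 4 were 194, 329, 664 and 901 CPM. In the 3 members labelled control Ager stood at 3078 CPM, against 4392 CPM in the other 109, with single values of 647, 3392 and 3914 CPM. Of the 7 members labelled null with Ager under 1000 CPM, 4 were secretory-high, and of the 4 such members labelled control 1 was.

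Sftpc, which encodes surfactant protein C and was not part of the rule, was present in most members. It stood at 2631 CPM in the members labelled null and 4946 CPM in those labelled control, against 47.2 and 70.9 CPM in the endothelial set and 42946 and 76834 CPM in the AT2 set. After thinning, 69.6% (54.2 to 82.3) and 76.0% (66.6 to 83.8) of members had a UMI, while 23.2% and 26.4% of 500 thinned endothelial cells drawn from each library had one. Without thinning the shares of members were 80.4% and 82.1%. It was unevenly spread, since the median member had 0.0464% and 0.0392% of its UMIs in Sftpc, and at least 1% was reached by 2 members labelled null (4.35%) and 12 labelled control (10.7%). Those 12 gave 81.4% of all Sftpc UMIs of their library's members. Their Ager ran from 785 through a median of 3247 to 6879 CPM, and summed it stood at 2766 CPM against 4600 CPM in the other 100 members labelled control. In the 2 members labelled null it stood at 2838 CPM against 5089 CPM in the other 44. No member was high in both Sftpc and the secretory genes.

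**Figure D3:**
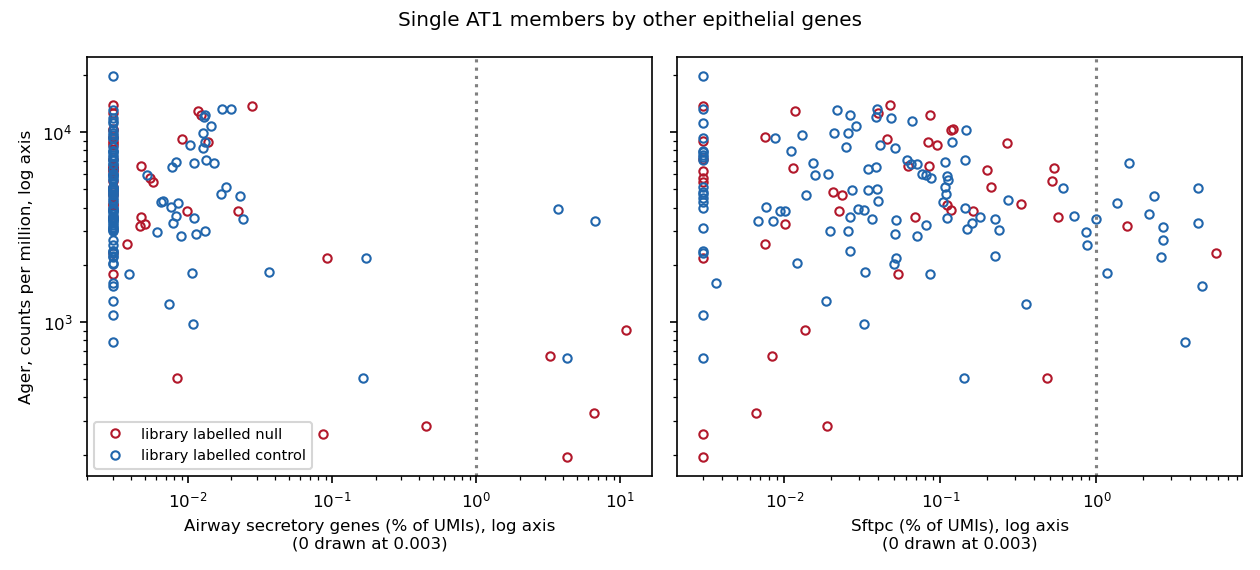
Ager level of each of the 158 members in CPM against the percentage of its UMIs in 6 airway secretory genes (left) and in Sftpc (right), all on log axes. The dotted line marks 1%; 4 members labelled null and 3 labelled control lie to its right for the secretory genes, and 2 and 12 for Sftpc.

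Principal components of the members, computed without the genes of the rule, named the same axes. In the 46 members labelled null the first component (10.4% of the variance of the 1000 most variable genes of 4839) ran from Cbr2, Wfdc2, Scgb3a2 and Cldn10 at one end to Emp2, Malat1, Aqp5 and S100a6 at the other, and the second from Mgp, Eln and Col1a2 to Tmsb4x and ribosomal protein genes. In 104 members labelled control the first (7.74%) ran from Mgp, Apoe and Eln to Tmsb4x, Emp2 and Malat1, and the second from Malat1, Msln and Emp2 to Sftpc and ribosomal protein genes. The third had the immediate-early genes Fos, Junb and Jun at one end and Scgb3a2 and Cbr2 at the other. Cycling was rare. Mki67 had a UMI in 1 of 46 and 2 of 104 thinned members (2.17% and 1.92%, and 8.70% and 5.36% of members without thinning), against 14.4% and 15.2% of thinned endothelial cells, and Top2a in 1 and 4.

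Set against the AT2 set of the same library (22 and 98 barcodes with at least 3 of the AT2 genes and Ager under 1), 233 of 2993 genes (7.78%) were at least 2-fold higher in the members in both libraries and 155 (5.18%) at least 2-fold lower. These sets were chosen on the same cells, so the ratios describe them and test nothing. The AT2 set was itself mixed, since 12 and 28 of its barcodes had at least 1% secretory UMIs, leaving 10 and 70 without them. The levels and ratios given here and below come from the whole set with those barcodes in it, also where it is called AT2 cells. Of the 21 AT1 genes 20 were past this fold and higher, and of 19 measured AT2 genes 14 were lower. The genes named here ranked highest by the mean log2 ratio of both libraries, an order that depends on the 0.5 CPM added to both levels, since the AT2 set labelled null held no more than 3 UMIs of any of them. Dlk2, a membrane protein related to Notch ligands, had 76 and 196 UMIs in the members against 0 and 1 in the AT2 set. It was at least 15.5-fold higher in the library labelled null and 264-fold (46.8 to 10476) in the library labelled control. Here and below, "at least" gives the lower end of the exact interval where the AT2 set had 0 UMIs. Aqp5, the water channel of the apical AT1 membrane, was 212-fold (58.3 to 1751) and 202-fold (68.7 to 983) higher. Akap5 was 217-fold (59.9 to 1799) and 49.3-fold (34.5 to 72.9) higher. Col4a4 was at least 23.8-fold and 51.02-fold (26.6 to 113) higher, and Spock2, a secreted proteoglycan, at least 12.8-fold and 53.3-fold (22.5 to 166). Pdpn was 22.6-fold (7.47 to 112) and 59.7-fold (19.99 to 293) higher, from 3 AT2 UMIs in each library. The small heat shock protein gene Cryab was 98.99-fold (33.6 to 482) and 31.9-fold (21.6 to 49.2) higher, and Ndnf 104-fold (35.2 to 504) and 16.8-fold (13.3 to 21.4). For Ndnf the intervals of the libraries did not overlap, with 3 AT2 UMIs in the library labelled null. The same held for Lyz1, Retnla, Sftpa1 and Lyz2 among the genes below AT2 cells. These intervals cover counting error alone and not the spread among cells, so a difference between the libraries was not tested. Pgam2, a glycolytic enzyme, was 62.3-fold (16.97 to 519) and 13.2-fold (8.31 to 22.1) higher, and Galnt18 59.2-fold (10.3 to 2369.8) and 13.4-fold (7.85 to 24.5). Cdkn2b, an inhibitor of the cell cycle, was 27.4-fold (9.14 to 135) and 18.6-fold (10.4 to 36.8) higher. Gramd2, Gm33489 and Sema3a were 54.6-, 36.9- and 31.9-fold higher in the library labelled null, from 1, 1 and 2 AT2 UMIs, and 39.05-, 23.7- and 24.8-fold higher in the library labelled control, from 4, 8 and 9. Cym, the protease chymosin, was at least 2.97-fold and 11.3-fold higher, but it came from few cells, as described below. A 0.866% part of the 60-base windows at the 3′ ends of Sema3a occurs in another gene, so its level is uncertain to that extent.

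Genes of the basement membrane stood above AT2 cells as a group, with 18 of 22 measured genes past the fold and none below. Over all genes tested 7.78% were above and 5.18% below. The median log2 ratio was 1.85, against 0.11 over all genes tested. The 8 measured mesenchymal markers had a median of 1.46 with none past the fold in both libraries. Their part in these ratios was not tested. Col4a4 stood at 165 and 248 CPM in the members, and Col4a3, which pairs with it in the collagen IV of the alveolar basement membrane, at 72.6 and 59.6 CPM. Timp3, an inhibitor of matrix proteases, stood at 912 and 984 CPM against 70.4 and 91.8 CPM in AT2 cells. Caveola genes did the same in 6 of 6, with Cav1, the coat protein of caveolae, at 417 and 317 CPM against 42.6 and 23.8 CPM. Endothelial cells had more of it. Of 12 measured ligands, 8 were above AT2 cells and none below. Vegfa, the growth factor of the alveolar capillary, stood at 348 and 438 CPM in the members and 29.6 and 84.8 CPM in the mixed AT2 set. Pdgfa, which acts on myofibroblast precursors, stood at 175 and 182 CPM, Tgfb2 at 239 and 281 CPM, Edn3, a ligand of endothelin receptors, at 157 and 124 CPM, and the axon guidance ligand Sema3a at 118 and 121 CPM. Fgf18 (39.9 and 50.9 CPM), Ndnf (575 and 706 CPM) and Efna1 (94.0 and 116 CPM) made up the 8.

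Among transcription factors of the alveolar epithelium, 4 of 19 measured were above AT2 cells and 3 below, against 7.78% and 5.18% of all genes tested. Wwtr1, which encodes the Hippo effector TAZ, stood at 197 and 254 CPM against 53.7 and 51.3 CPM, and its partner Tead1 at 124 and 126 CPM against 42.6 and 49.1 CPM. Gata6 and Foxp2 were the others above, and Cebpa, Sox9 and Etv5 the 3 below. Of 4 measured YAP and TAZ targets, Ctgf and Tgfb2 were above and none below. Cell cycle genes were below AT2 cells in 4 of 8 measured. The genes furthest below AT2 cells were Lyz1, a lysozyme (mean log2 ratio -9.46, uncertain because 13.2% of its 3′ end occurs in Lyz2), the calcium-binding S100g (-7.09), Pon1, Retnla (-6.84), the surfactant protein gene Sftpa1 (-6.73), the fatty acid desaturase Scd1 (with 2.84% of its 3′ end in related genes), Lcn2 (-6.36) and Lyz2 (-5.98, uncertain with Lyz1). Pon1 had 0 UMIs in the members labelled control, and the exact interval allows up to 0.0232 of the level in the AT2 set. Scd1 had 0 in the members labelled null, which allows up to 0.0673 of that level. Several of the others had no more than 5 UMIs in the members of a library, and a ratio of such genes depends on the 0.5 CPM added to both levels.

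Between the libraries, 2611 genes of the members reached 50 CPM in 1 of them. A gene was counted where the ratio passed 1.5-fold to the same side in raw and in SoupX-adjusted values, and 103 (3.94%) were higher in the library labelled null and 156 (5.97%) lower. The counting interval of the raw ratio also lay on one side of equal levels for 97 and 151 of them. The same raw counts had chosen these genes, and the interval takes each UMI as independent, so this adds no support for them. On raw counts alone, 126 and 217 passed, and on SoupX-adjusted values alone 531 and 372, so the balance of higher and lower genes depended on that correction. The median log2 ratio of all genes tested was -0.02 in raw and 0.07 in SoupX-adjusted values. Because Cxcl12 went against the labels and the libraries differed in sex and depth, a direction below is that of 2 labelled libraries, and genotype, sex, embryo and preparation cannot be told apart.

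**Figure D4:**
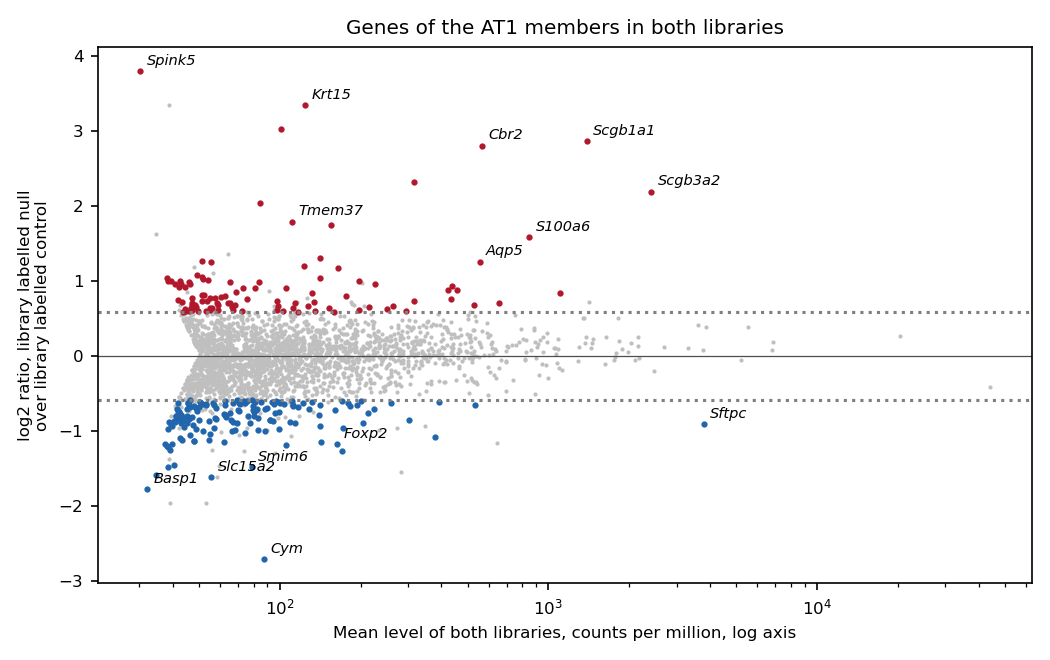
Log2 ratio of the library labelled null over the library labelled control, from raw counts of the AT1 members, against the mean level of both in CPM on a log axis. Each point is 1 of 2611 genes; coloured points passed 1.5-fold (dotted lines) in raw and SoupX-adjusted values, with 103 above and 156 below, and Scgb1a1, Scgb3a2 and Cbr2 are the most abundant far above 0.

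The 8 highest log2 ratios of the library labelled null over the library labelled control included 3 of the 6 secretory genes. Spink5, a protease inhibitor, had a log2 ratio of 3.797 from 57.0 and 3.63 CPM, and 92.5% of its UMIs came from 1 member. The keratin gene Krt15 had 3.35, the stress-induced Nupr1 3.02, Scgb1a1 2.86, the carbonyl reductase gene Cbr2 2.81, the haptoglobin gene Hp 2.32, Scgb3a2 2.19 and the cytochrome P450 gene Cyp2f2 2.05. Of these, 16.4% of the 3′ end of Cbr2 occurs in another gene, which leaves its level uncertain. Scgb1a1, the secretoglobin of club cells, stood at 2444 and 335 CPM, with 84.1% and 67.2% of its UMIs in 1 member of each library. The summed secretory list was 6542 and 1235 CPM over all members and 160 and 112 CPM without the 7 secretory-high members. Without them, Scgb3a2 turned to -1.40 and Spink5 to -1.31, whereas Scgb1a1 stood at 2.75, Cbr2 at 2.07 and Krt15 at 1.96. Nupr1 had 2.03 but was no longer counted. The 4 labelled null held 3, 5, 8 and 20 raw UMIs of Ager, and with Ager and Hopx of at least 4 Spink5 had 1.33. Of the 102 secretory UMIs left in the other 42 members labelled null, 79 (77.5%) came from 3 members, and Ager stood at 282 and 258 CPM in 2 of these. In the other 109 members labelled control 3 members gave 108 of 151 (71.5%). Without members that had over 2 UMIs of another type, Scgb1a1 turned to -0.25 and Spink5 to -1.31, and Scgb3a2 had 1.40 and Hp 0.93. Krt15, Nupr1, Cbr2 and Cyp2f2 stayed higher past 1.5-fold in that setting. The secretory-high members were found after the data had been seen. They were picked by the 6 secretory genes, so the fall of the summed list without them was fixed in advance. The ratios of Scgb1a1, Scgb3a2 and Cyp2f2 without them likewise follow a removal made on these genes. The number of genes past the fold moved little, to 99 of 2614 (3.79%) higher and 152 (5.81%) lower, and 78 and 123 genes were in both counts.

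S100a6 and Aqp5 were also counted as higher in the library labelled null. S100a6, a calcium-binding protein of the cell cortex, stood at 1276 CPM (1194 to 1363) in the members labelled null and 424 CPM (390 to 460) in those labelled control, a log2 ratio of 1.59 (1.44 to 1.74). It had a UMI in 41 of 46 and 86 of 112 members, and in 82.6% and 64.4% after thinning, against 12.2% and 6% of thinned endothelial cells. The same direction was seen in the near-rule set (log2 ratio 1.78), the AT2 set (2.48), the endothelial set (1.74) and the mesenchymal set (1.79), while the immune set had -0.22. S100a6 was therefore higher well beyond AT1 cells in the library labelled null.

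Aqp5 stood at 783 CPM (719 to 852) and 327 CPM (298 to 359), a log2 ratio of 1.26 (1.08 to 1.44), and was the single AT1 gene counted as higher. Single members ran from 0 through a median of 867 CPM to 3455 CPM in the library labelled null and from 0 through 212 CPM to 3431 CPM in the library labelled control. The ranges overlapped in full and the middle parts differed, with quartiles of 99.1 and 1590 CPM against 0 and 546 CPM. After thinning, 67.4% (52.0 to 80.5) and 56.7% (46.7 to 66.4) of members had a UMI, and 78.3% and 68.75% without thinning, against 0.4% and 0% of thinned endothelial cells. The log2 ratio was 0.61 in the near-rule set and 0.88 when the rule was applied to raw counts, and 1.37 without the secretory-high members. It fell short of 1.5-fold, at 0.50, without members that had over 2 UMIs of another type. Among members with Y-linked UMIs and no Xist alone, a comparison added after the data had been seen, it was 1.73. Tmem37 followed the same pattern as S100a6 in epithelium, with 172 and 49.4 CPM in the members (log2 ratio 1.79), 1.82 in the near-rule set and 1.70 in the AT2 set, but -0.32 in the endothelial set. Without members that had over 2 UMIs of another type Tmem37 had 0.75. S100a14 stood at 201 and 80.7 CPM (1.31), and Cxcl15, a chemokine gene of lung epithelium, at 239 and 71.2 CPM (1.74). Without the secretory-high members Cxcl15 had 1.05.

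The AT1 genes as a list did not follow Aqp5. Of 21 measured, 1 (4.76%) was higher and 1 lower, against 3.94% and 5.97% of all genes tested. The median log2 ratio was -0.04 in raw counts, 0.10 without the secretory-high members and -0.48 in SoupX-adjusted values. The median thus lay further below 0 after the correction for free RNA, which had removed unlike shares from both libraries. It lay above 0 without the secretory-high members, with Ager and Hopx of at least 4 (0.04), in means of single-member CPM (0.08) and among members with Y-linked UMIs and no Xist (0.22). It lay further below 0 with the rule on raw counts (-0.24) and without members that had over 2 UMIs of another type (-0.51). Emp2 had 0.10 (0.00 to 0.19), Clic3 0.03 (-0.10 to 0.16), Akap5 -0.04 (-0.18 to 0.11) and Rtkn2 -0.07 (-0.68 to 0.52) in raw counts. Spock2 was the gene counted as lower, at 89.7 and 144 CPM (-0.68). Without the secretory-high members it fell short of the fold at -0.52, and Aqp5 and Scnn1g, a subunit of the epithelial sodium channel (1.02), were the 2 of 22 counted as higher. Lmo7 (489 and 699 CPM, -0.52) and Col4a4 (-0.58) fell short of the fold. Krt7 (892 and 613 CPM, 0.54), Krt19 (1574 and 1106 CPM, 0.51) and Krt8 (991 and 783 CPM, 0.34) also fell short. In their list of 10 keratin and stress genes Lgals3, a galectin, was the 1 counted as higher (325 and 204 CPM) and none was lower, at a median of 0.44 in raw and 0.10 in SoupX-adjusted values. Sfn, the 14-3-3 sigma gene, passed as well without the secretory-high members (1.05). Pan-epithelial genes gave 0 of 11 in either direction and tip progenitor genes 0 of 2.

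The genes lowest in the library labelled null had modest levels. Cym had the lowest log2 ratio at -2.71, but 100% of its UMIs came from 1 member labelled null, and 10 members labelled control had any, with 61.7% from 1. Basp1 had -1.78 and turned to 0.57 without the members called doublets. Slc15a2, a transporter of small peptides, stood at 27.1 CPM (16.3 to 42.3) and 84.3 CPM (69.7 to 101), a log2 ratio of -1.62 (-2.42 to -0.93), with a UMI in 15 of 46 and 66 of 112 members. It was also low in the endothelial set (0.108 and 10.0 CPM), the mesenchymal set (0.518 and 7.96 CPM) and the immune set (0.161 and 16.0 CPM), where nearly no UMI was left in the library labelled null. Sorl1 had -1.59, Wdfy1 -1.48, Smim6 -1.48, Dctn1 -1.46, Nrep -1.27, Gm20186 -1.26, Golga4 -1.22, Fgfr3 -1.20 and Zfhx3 -1.19. Short of 1.5-fold were Sorl1 and Fgfr3 when the AT2 genes could sum to less than 2 (-0.36 and -0.22) and without members that had over 2 UMIs of another type (-0.48 and -0.28), Cym with the rule on raw counts (-0.57) and Wdfy1 among members with Y-linked UMIs and no Xist (-0.38). Among those members, 16 and 96, Slc15a2 had -3.06, Smim6 -2.56, Dctn1 -2.41, Sorl1 -2.35 and Basp1 -0.81. When the AT2 genes could sum to less than 2, Wdfy1 had -0.71, Dctn1 -0.72 and Gm20186 -0.65. Without members that had over 2 UMIs of another type, which left 14 and 35, Wdfy1 had -2.79, Dctn1 -2.72, Nrep -2.34 and Golga4 -2.23. Of these, Wdfy1 and Smim6 had ratios below 0 in every set compared, at -0.59 and -0.65 in the near-rule set and -0.91 and -0.45 in the endothelial set. Gm20186 shares 23.25% of its 3′ end and Dctn1 0.416% with other genes, which leaves their levels uncertain.

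**Figure D5:**
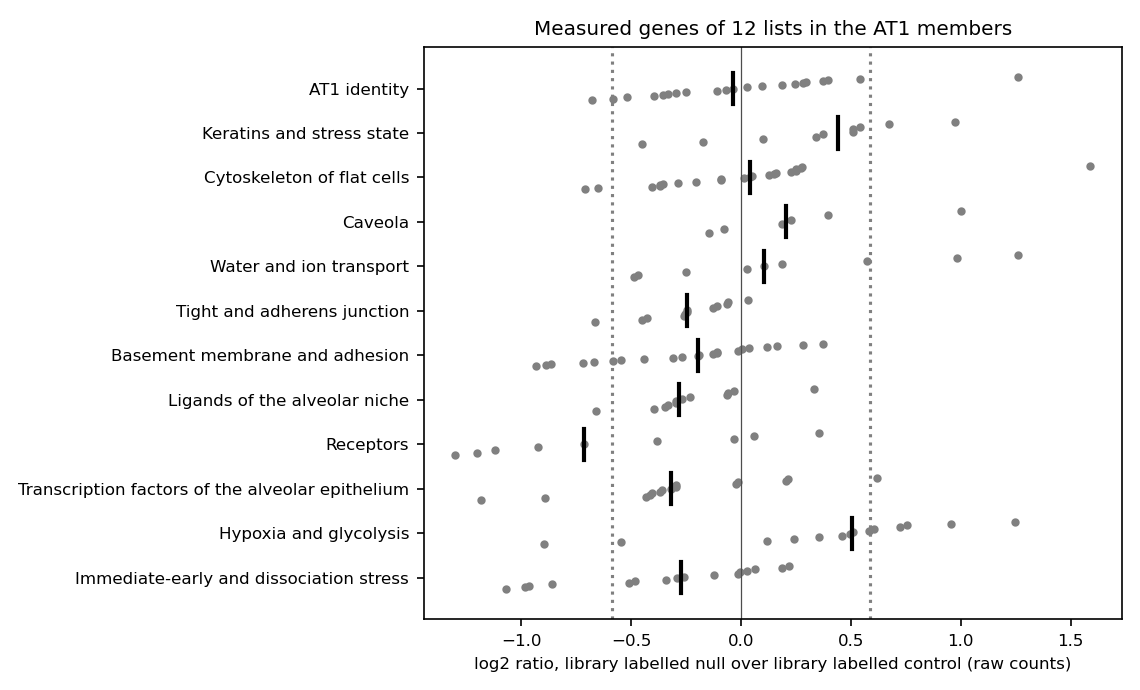
Log2 ratio of the library labelled null over the library labelled control for the measured genes of 12 lists in the AT1 members, from raw counts. Grey points are genes, black bars are medians and dotted lines mark 1.5-fold; the medians run from -0.71 for the receptors to 0.50 for hypoxia and glycolysis, and that of the AT1 genes is -0.04.

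Over all genes tested, 3.94% were higher and 5.97% lower. Of the signalling genes, receptors had a median of -0.71 in raw counts over 9 measured genes, with 3 (33.3%) lower and 0 higher. These were Fgfr2 (32.8 and 62.5 CPM), Fgfr3 (22.8 and 53.1 CPM) and Erbb3 (34.2 and 74.9 CPM), which pairs with other receptors of the EGF family. The epithelial isoform of Fgfr2 binds FGF7 and FGF10, and counts of 3′ ends do not show the isoform. The lower level of Fgfr3 did not hold past 1.5-fold when the AT2 genes could sum to less than 2, nor without members that had over 2 UMIs of another type. The median of the same genes was -0.02 in the near-rule set and -0.20 in the AT2 set. Ligands gave 0 of 12 in either direction, although 11 of 12 raw log2 ratios were below 0 (median -0.28). In SoupX-adjusted values the order of the medians was the opposite, with -0.59 for the ligands and -0.21 for the receptors. Vegfa had -0.33 (-0.55 to -0.12) and Edn3, the one above 0, had 0.33 (-0.03 to 0.69). Members hardly expressed the CXCL12 pathway. Cxcl12 had 5 UMIs (7.12 CPM) in the members labelled null and 0 in those labelled control, which allows up to 2.18 CPM. Of its receptors, Cxcr4 had 1 and 4 UMIs and Ackr3 had 3 and 3. In SoupX-adjusted values the 3 genes summed to 0 CPM in the members of both libraries.

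Against 3.94% higher and 5.97% lower of all genes tested, basement membrane genes gave 0 higher and 5 lower of 22 (22.7%). Their median was -0.19 in raw and -0.52 in SoupX-adjusted values. All 5 but Fras1, an anchoring protein of epithelial basement membranes, encode laminin chains. Lama3 stood at 96.9 and 185 CPM (-0.93), Lama5 at 141 and 225 CPM (-0.67), Lamb2 at 76.9 and 142 CPM (-0.89) and Lamb3 at 66.9 and 122 CPM (-0.86). Without the secretory-high members Lama5 fell short of the fold at -0.57 and the other 4 were still counted as lower. The near-rule set gave -0.97, -0.85, -0.71 and -0.41 for the same 4 genes, and the endothelial set 0.04, 1.05, -0.01 and 0.35. No collagen IV gene was counted, but these genes differed. Col4a1 stood at 382 and 380 CPM. Col4a4 fell just short of the fold at -0.58 (-0.90 to -0.28), and Col4a3 had 0.28 (-0.25 to 0.81). Transcription factors gave 2 lower of 15, Klf6 (142 and 265 CPM) and Foxp2 (99.7 and 227 CPM, -1.18), and Nkx2-1 had -0.30 (463 and 568 CPM). A Foxp2 UMI was found in 34.8% and 58.7% of thinned members, against 2% and 2.20% of thinned endothelial cells, but in 78.3% and 75.9% of members without thinning. Tight and adherens junction genes gave 1 lower of 12, Tjp1 (-0.67), at a median of -0.24 in raw and -0.51 in SoupX-adjusted values. Without the secretory-high members Tjp1 fell short at -0.58 and 0 of 12 were counted.

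Hypoxia and glycolysis genes had a median of 0.50 in raw and 0.64 in SoupX-adjusted values, with 4 higher and 1 lower of 14, and 12 of 14 ratios above 0. Of all genes tested, 3.94% were higher and 5.97% lower. Pgk1 stood at 298 and 153 CPM (0.95), Tpi1 at 357 and 235 CPM (0.61), Mif, a cytokine on the same list, at 547 and 323 CPM (0.76) and Ankrd37 at 78.3 and 32.7 CPM (1.25). Bnip3, a mitophagy receptor that hypoxia induces, went the other way at 54.1 and 101 CPM (-0.90). Gapdh (1588 and 1114 CPM, 0.51), Ldha (612 and 409 CPM, 0.58) and Aldoa (587 and 416 CPM, 0.50) did not pass the fold, and without the secretory-high members Ldha (0.59) and Eno1 (0.77) passed too, for 6 of 13. The median of this list was also above 0 in the near-rule set (0.31), the AT2 set (0.55), the endothelial set (0.25), the mesenchymal set (0.16) and the immune set (0.07), so it was not particular to AT1 cells. Nuclear genes of oxidative phosphorylation had a median of 0.16 with 2 of 77 higher, and ribosomal protein genes 0.06 with 0 of 80.

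Counts of the remaining lists stand beside 3.94% higher and 5.97% lower over all genes tested. Caveola genes gave 1 higher of 6, Cavin2 (263 and 132 CPM, 1.00). Water and ion transport gave Aqp5 and Aqp1, a further water channel (111 and 56.0 CPM, 0.98), of 9, and without the secretory-high members Scnn1g was also higher and Slc12a2 lower. Cavin2 and Aqp1 were abundant in the endothelial set too, at 540 and 539 CPM and at 212 and 185 CPM. The 4 measured endothelial markers moved with them in the members, with 4 of 4 raw log2 ratios above 0 (median 0.94, and 0.00 in SoupX-adjusted values) and sums over all 12 markers of 420 and 190 CPM, and their part in the levels of Cavin2 and Aqp1 was not tested. Genes of the cytoskeleton gave S100a6 higher and Limch1 lower of 23, at a median of 0.04, and Tmsb4x, which binds actin monomers, stood at 22203 and 18384 CPM. Immediate-early genes, which rise during dissociation, gave Atf3 lower of 16 (6.25%), near the share over all genes. Their median was -0.27 in raw and 0.62 in SoupX-adjusted values. Genes that respond to glucocorticoids gave Mt1 (652 and 408 CPM) and Mt2 higher and Errfi1 lower of 7, and Errfi1 fell short at -0.54 without the secretory-high members. AT2 genes gave 4 higher (Sftpb, Sftpd, Fasn, Cxcl15) and 2 lower (Sftpc, Dram1) of 11, at a median of 0.37 in raw counts. Without the secretory-high members Sftpb moved from 1.20 to -0.05 and Sftpd from 0.76 to 0.35, Napsa passed at 0.79, and the 3 counted as higher were Napsa, Fasn and Cxcl15. Mesenchymal markers gave 0 of 8 in either direction, endothelial markers 1 higher (Esam) of 4, interferon and antigen presentation genes 1 higher (H2-K1) of 5, lipid synthesis genes 1 higher (Fasn) of 2, YAP and TAZ targets 0 of 4 and cell cycle genes 1 lower (Hmgb2) of 2. The mitochondrial genome gave 1 lower (mt-Atp8) of 12. None of the immune or erythroid markers reached 50 CPM in a library.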

How the data were processed

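Dissociated E18.5 lungs were profiled with 10x 3′ v3 chemistry. The authors aligned reads to mm10 with Cell Ranger 3.1 and deposited raw counts of UMIs per gene and barcode. A further matrix per library that the authors deposited holds expected counts, that is, the same counts after SoupX had subtracted free RNA, and the rule was applied to these. The submitters' notes also name Seurat 3.2.2. Levels, ratios and intervals come from summed raw counts, with SoupX-adjusted values beside them. Cells are not replicates and each genotype had 1 library, so no count model or test was run. No other normalization was applied than CPM, with 0.5 CPM added in log2 ratios.

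Counts over all genes and rankings left out the 8 genes of the rule, Gm42418, Xist and Y-linked genes, and those of haemoglobin, ribosomes and the mitochondrial genome. Gene lists were counted without this exclusion, so ribosomal and mitochondrial genes were counted there. Ratio intervals are exact conditional binomial. Named genes were the rule genes, AT1 genes, the 15 highest and 8 lowest against AT2 cells, the 12 highest and 12 lowest ratios between libraries, leading and called genes of 33 lists, and Cxcl12 with its receptors. Members and lists were chosen with earlier results of these data known. Comparison sets used SoupX-adjusted marker values: AT2 as given in the text, endothelial with Pecam1 and Cdh5 of at least 2, mesenchymal with Col1a2 of at least 3, and immune with Ptprc of at least 2. Doublets were called with Scrublet in scanpy 1.11.5 and kept in the main values. The ratio and its interval were tried on simulated Poisson counts with known folds. That trial covers neither the spread among members nor the cut on SoupX-adjusted values. The 3′ ends of 71 named genes were searched for 60-base windows found in other genes, and 10 had one. Promoters come from RefSeq (GRCm38.p6). A further result of the gene lists is not reported here.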

Additional observations from a re-analysis of the deposited data

Results flagged for a closer look

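The rule was also met, on raw counts, by barcodes of the sorted libraries, from which EpCAM-positive cells had been removed. There were 5 such barcodes of 11649 kept at E15.5 (0.0429%, exact 95% interval 0.0139 to 0.1001) and 7 of 9542 at E18.5 (0.0734%, 0.0295 to 0.151). These libraries entered no comparison, and the counts are listed because they exceed the 3 counts that a count of 0 allows. Both intervals include the matching limits (0.0258% and 0.0314%), and no background share was measured, so the values are a description. The share was 0.601% and 1.355% in the whole lungs labelled null and control on raw counts. In the sorted E13.5 and P8 libraries 1 and 2 barcodes met the rule.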

How the results depend on the processing

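No paired analysis was possible because each genotype has 1 library. Of 80 alternative values of the shares, counts and medians, 60 stayed within their limits. The share of members among Epcam-positive barcodes, 9.33% labelled null and 16.4% labelled control, moved to 21.9% and 25.4% when the AT2 genes could sum to less than 2. It moved to 2.84% (14 members) and 5.11% (35 members) without members that had over 2 UMIs of another type, to 15.25% labelled null after thinning and to 12.5% labelled control on raw counts. The 103 higher and 156 lower genes became 375 and 561 without the members with UMIs of another type, 322 and 288 with Y-linked members alone, 531 and 372 in SoupX-adjusted values alone and 607 and 917 from 10 CPM. A limit of 10 CPM tests more genes by construction, and the other causes were not tested. Without called doublets the counts were 154 and 225. The AT1 median moved to -0.51 without members with UMIs of another type and to -0.45 in SoupX-adjusted values over the 22 genes that reached 50 CPM in those values (-0.48 over the 21 chosen on raw counts). Against AT2 cells, 233 and 155 became 392 and 240 in SoupX-adjusted values and 486 and 495 from 10 CPM. Of 675 values of 45 named genes, 143 left the counting interval of the main ratio or turned sign in a counted gene, and 40 turned sign or reached 0. Of these, 33 belonged to 13 AT1 genes that were not counted in either direction, whose values after turning ran from -1.07 (Col4a3) to 1.21 (Rtkn2). The other 7 belonged to counted genes. Basp1 turned to 0.57 without doublets and 0.0282 without members with UMIs of another type, which also gave Spink5 -1.31, Scgb1a1 -0.25 and Cym 0. Without the secretory-high members Spink5 had -1.31 and Scgb3a2, by which those members were picked, -1.40. The causes were not tested beyond these removals. The alternatives with secretory-high members removed, raw counts thinned before the rule, Y-linked members and the counting interval were chosen after seeing the data. With 46 and 112 members, depth limits genes near 50 CPM.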

Other observations

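Malat1, a nuclear RNA, was the most abundant transcript of the members, at 37466 CPM in the library labelled null and 50166 CPM in the library labelled control, and it stood at 23201 and 35706 CPM in the AT2 set. Mitochondrial transcripts made up a median of 4.49% and 4.84% of the raw UMIs of a member. Pgam2 was unevenly spread, with a UMI in 22 of 46 and 41 of 112 members at 231 and 142 CPM, against 3.70 and 10.8 CPM in the AT2 set. The window before the Cdkn2b start and that before the Gm33489 start held the letters CACTTG or CAAGTG. These were 2 of 21 windows of 14 genes (Ager, Hopx and genes ranked highest against AT2 cells), against 11.6% of all 32851 windows. None of the 21 held CATTCC or GGAATG, against 12.6%. TATAAA or TTTATA occurred in 3 of 21, against 12.4%, and a GC box in 4 of 21, against 32.7%. The counts are a description.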
